A study of Mus musculus with 23 samples.

Results

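The keratin-associated protein genes (Krtap genes) encode the matrix proteins of the hair shaft. The family was taken as every protein-coding gene whose mouse symbol begins with Krtap and a number, and 52 of the 37620 gene identifiers in the count files met that rule. The annotation names 57 such genes, of which Krtap10-10, Krtap16-3, Krtap22-2, Krtap28-10 and Krtap28-13 have identifiers that are not among those of the files and were not analysed here. A symbol marked as a pseudogene, Krtap19-9a, was left out. Of the 52 members, 51 had at least 1 count in some library and Krtap1-4 was listed at 0 in all 23 libraries.

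Hair is built by cells of the follicle's matrix that move upwards, fill with hair keratins and die as they harden. Keratin-associated proteins are made late in that course, in the cortex and cuticle of the growing shaft, and bind the keratin filaments into a rigid fibre, the cysteine-rich members through disulfide bonds. Their genes are not known to be active in the epidermis between follicles or in pigment cells, and their RNA in skin is a marker of growing hair. Members fall into 3 protein classes by family number: 14 high glycine-tyrosine genes, 17 high sulfur genes and 19 ultra-high sulfur genes, with the 2 members Krtap31-1 and Krtap31-2 placed in none. All 14 high glycine-tyrosine genes lie on mouse chromosome 16. The high sulfur genes are divided between chromosome 11 with 9 and chromosome 16 with 8, and the ultra-high sulfur genes between chromosome 11 with 12, chromosome 7 with 5 and chromosome 10 with 2.

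RNA was sequenced from ultraviolet-induced mouse melanomas, 1 library per tumour sample, in 4 groups. There were 2 lung metastases, 7 lymph node metastasis libraries and 7 primary melanomas from mice with 1 intact copy each of Nme1 and Nme2 (genotype Nme1+/- / Nme2+/-, prefix HPN), and 7 primary melanomas from mice of genotype Nme1wt / Nme2wt (prefix HP). The labels do not spell out the prefixes or the ages of the mice, and ultraviolet induction is named in the series title for all tumours. Node libraries were brachial (3, 4 and 8), cervical (6 and 7a), inguinal (7b) or called only lymph (5), and libraries are named here by the number in their title. The labels do not say whether tumours with the same number, or tumours of a group, came from separate mice, so p-values measure only the spread between these samples, which may be technical. Gene counts per library ran from 18870759 to 89481553. The files of 8 libraries (HP primaries 3, 6, 7 and 9, HPN primary 7, and node libraries 7a, 7b and 8) set reads aside for low alignment quality and those of the other 15 did not, a difference in processing that is called the low-quality batch here. Levels are given as CPM, which are gene counts relative to library size, with TMM scaling over the 23 libraries. The melanocyte list had no gene at 0 in any library and summed to 4741 CPM or more in each. The lymphocyte list summed to 188 to 1402 CPM in node libraries and to 4.14 to 22.1 CPM in HPN primaries. The alveolar and airway list reached 7646 CPM in lung 4 but only 3.31 CPM in lung 3, with 3 of its 6 genes at 0, a level like that of the primaries.

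The promoters of the family are shown for the 2 members of each class with the highest mean CPM in primaries among those with a promoter window, because these genes recur in the comparisons. Each line is the 100 bases before the transcription start in RefSeq's GRCm38.p6 table, 5′ to 3′ on the gene's own strand, and capitals mark TATAAA, the core of the TATA box that positions the transcription machinery. Krtap8-1 (chr16:89487953-89488052, minus strand) and Krtap19-3 (chr16:88878039-88878138, minus strand) are high glycine-tyrosine genes. Krtap11-1 (chr16:89571184-89571283, minus strand) and Krtap1-5 (chr11:99581017-99581116, minus strand) are high sulfur genes. Krtap9-3 (chr11:99598107-99598206, minus strand) and Krtap4-1 (chr11:99628240-99628339, minus strand) are ultra-high sulfur genes.
Krtap8-1: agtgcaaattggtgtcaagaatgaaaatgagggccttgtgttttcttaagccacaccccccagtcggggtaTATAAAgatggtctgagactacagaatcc
Krtap19-3: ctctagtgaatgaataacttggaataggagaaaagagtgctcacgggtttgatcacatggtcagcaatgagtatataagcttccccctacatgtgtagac
Krtap11-1: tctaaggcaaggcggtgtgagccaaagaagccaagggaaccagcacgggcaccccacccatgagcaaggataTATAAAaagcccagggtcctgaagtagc
Krtap1-5: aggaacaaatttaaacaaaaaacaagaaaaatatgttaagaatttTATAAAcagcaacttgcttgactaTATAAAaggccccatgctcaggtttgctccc
Krtap9-3: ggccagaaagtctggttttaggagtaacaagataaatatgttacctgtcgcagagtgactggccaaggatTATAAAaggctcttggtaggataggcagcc
Krtap4-1: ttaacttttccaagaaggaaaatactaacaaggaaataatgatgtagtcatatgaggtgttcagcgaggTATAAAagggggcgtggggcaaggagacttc

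In 5 of these 6 promoters the TATAAA nearest to the start begins 28 to 31 bases before it, and Krtap1-5 has another copy further upstream. Krtap19-3 has no exact TATAAA. Over the family, 48 of 52 members had a RefSeq window of 250 bases before to 50 bases after the start. TATAAA stood on the sense strand between 40 and 20 bases before the start in 28 of 48 member windows (58.3%), against 1.87% of all 32851 promoter windows in the table. The distance from its first base to the start ran from 27 to 37 bases with a median of 31, and 25 of the 28 lay between 27 and 32. The share with such a core was 38.5% among high glycine-tyrosine members, 56.2% among high sulfur members and 70.6% among ultra-high sulfur members. Anywhere in the window and on either strand, TATAAA was found in 39 of 48 members and in 13.6% of all windows. TTTATTA, an AT-rich sequence of the kind Hox proteins bind, was found on either strand in 6 of 48 members (12.5%) and in 4.93% of all windows. Its reverse complement ends in the same 5 letters as TATAAA, so the searches are not fully independent. A match is a description of these letters, and no match says nothing about a factor.

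Family RNA was present at a high level in a handful of primary melanomas and close to 0 in the rest. The summed family reached 13.3 CPM in lung 4 and 1.25 CPM in lung 3. It was 4.93 CPM in node 4, 0.881 CPM in node 3 and 0.863 CPM in node 7a. The other node libraries held 0.318 CPM (node 8), 0.286 CPM (node 7b), 0.0440 CPM (node 5, a single count) and 0 (node 6, where a count of 0 allows a level of up to 0.0892 CPM).

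Among HPN primaries the family summed to 1607 CPM in primary 4, 769.6 CPM in primary 1 and 29.2 CPM in primary 2. The remaining HPN primaries were far lower, at 1.87 CPM (primary 6), 1.85 CPM (primary 3), 0.911 CPM (primary 5) and 0.506 CPM (primary 7). Among HP primaries it summed to 510.6 CPM in primary 6 and 163 CPM in primary 1. HP primaries 3 and 4 had 8.14 and 6.19 CPM, and primaries 5, 7 and 9 had 1.02, 0.442 and 0.0585 CPM. Lowest and highest primaries differed 3176-fold within the HPN genotype and 8723-fold within the HP genotype, where HP primary 9 had 3 family counts. HPN primary 4 alone held 51.4% of all family counts in the series, HP primary 6 held 21.4%, HPN primary 1 held 20.4% and HP primary 1 held 4.11%, together 97.3%. Even in HPN primary 4, with 55539 family counts, the family made up 0.145% of gene counts.

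**Figure D1:**
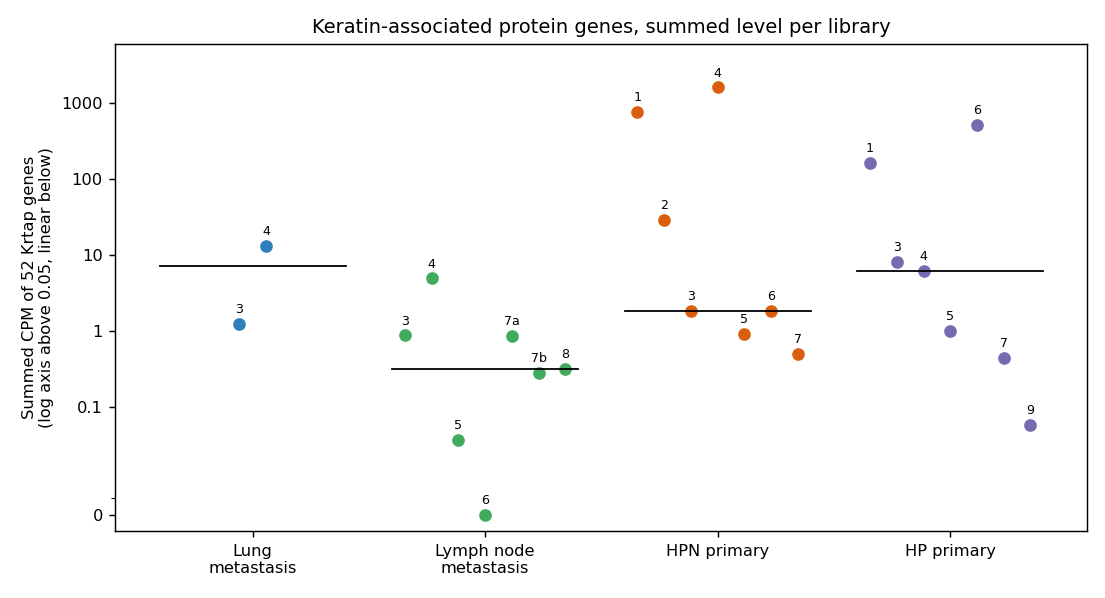
Summed CPM of the 52 Krtap genes in each library (vertical axis logarithmic above 0.05 and linear below), with libraries numbered by title and a horizontal line at each group's median. The 2 lungs lie at 1.25 and 13.3 CPM, the 7 node libraries between 0 and 4.93 CPM, the HPN primaries between 0.506 and 1607 CPM and the HP primaries between 0.0585 and 510.6 CPM, and all 4 groups overlap.

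Title number 4 marked the highest library in each of the 3 HPN groups. Lung 4 held 0.827% and node 4 held 0.307% of the family level of HPN primary 4, and lung 4 stood 10.6-fold above lung 3 while node 4 stood 5.60-fold above node 3. At least 10 counts were reached by 17 members in lung 4 and by none in lung 3, by 4 in node 4 and by none in the other node libraries. In HPN primaries that number was 47 (primary 1), 29 (primary 2), 1 (primary 3), 50 (primary 4) and 0 (primaries 5, 6 and 7). In HP primaries it was 44 (primary 1), 23 (primary 3), 17 (primary 4), 48 (primary 6) and 0 (primaries 5, 7 and 9).

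The members shared their high libraries. Of the 51 with any count, 46 had their 4 highest values in the same 4 libraries, HPN primaries 1 and 4 and HP primaries 1 and 6, and the exceptions were Krtap6-3, Krtap13, Krtap19-2, Krtap20-2 and Krtap31-2. The highest value was in HPN primary 4 for 47 members, in HP primary 6 for 2 and in HPN primary 1 for 2. Members also differed widely among themselves. Per kilobase of exon and averaged over the 14 primaries, Krtap8-1 stood at 45.9 CPM per kb and Krtap7-1 at 38.0, followed by Krtap3-1 at 17.3, Krtap11-1 at 15.7, Krtap1-5 at 14 and Krtap19-3 at 11.5. That mean is weighted to HPN primary 4, so the order was also taken, by a choice made after seeing the data, from shares of family counts per kb with the 7 primaries of at least 300 family counts weighted equally. Krtap8-1 (17.2 ± 4.61% per kb, SD, n = 7) and Krtap7-1 (12.1 ± 5.06%) again came first, and Krtap8-1 ranked 1 or 2 in each of the 7. Krtap11-1 (6.55 ± 1.14%), Krtap3-1 (6.46 ± 2.34%) and Krtap1-5 (5.69 ± 1.98%) lay within their spread of each other, and Krtap3-1 ranked 3 in HPN primary 4 but 9 in HPN primary 1. At the low end stood Krtap20-2 at 0.112, Krtap4-9 at 0.0974 and Krtap13, with a single count in HP primary 6, at 0.00176 CPM per kb.

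**Figure D2:**
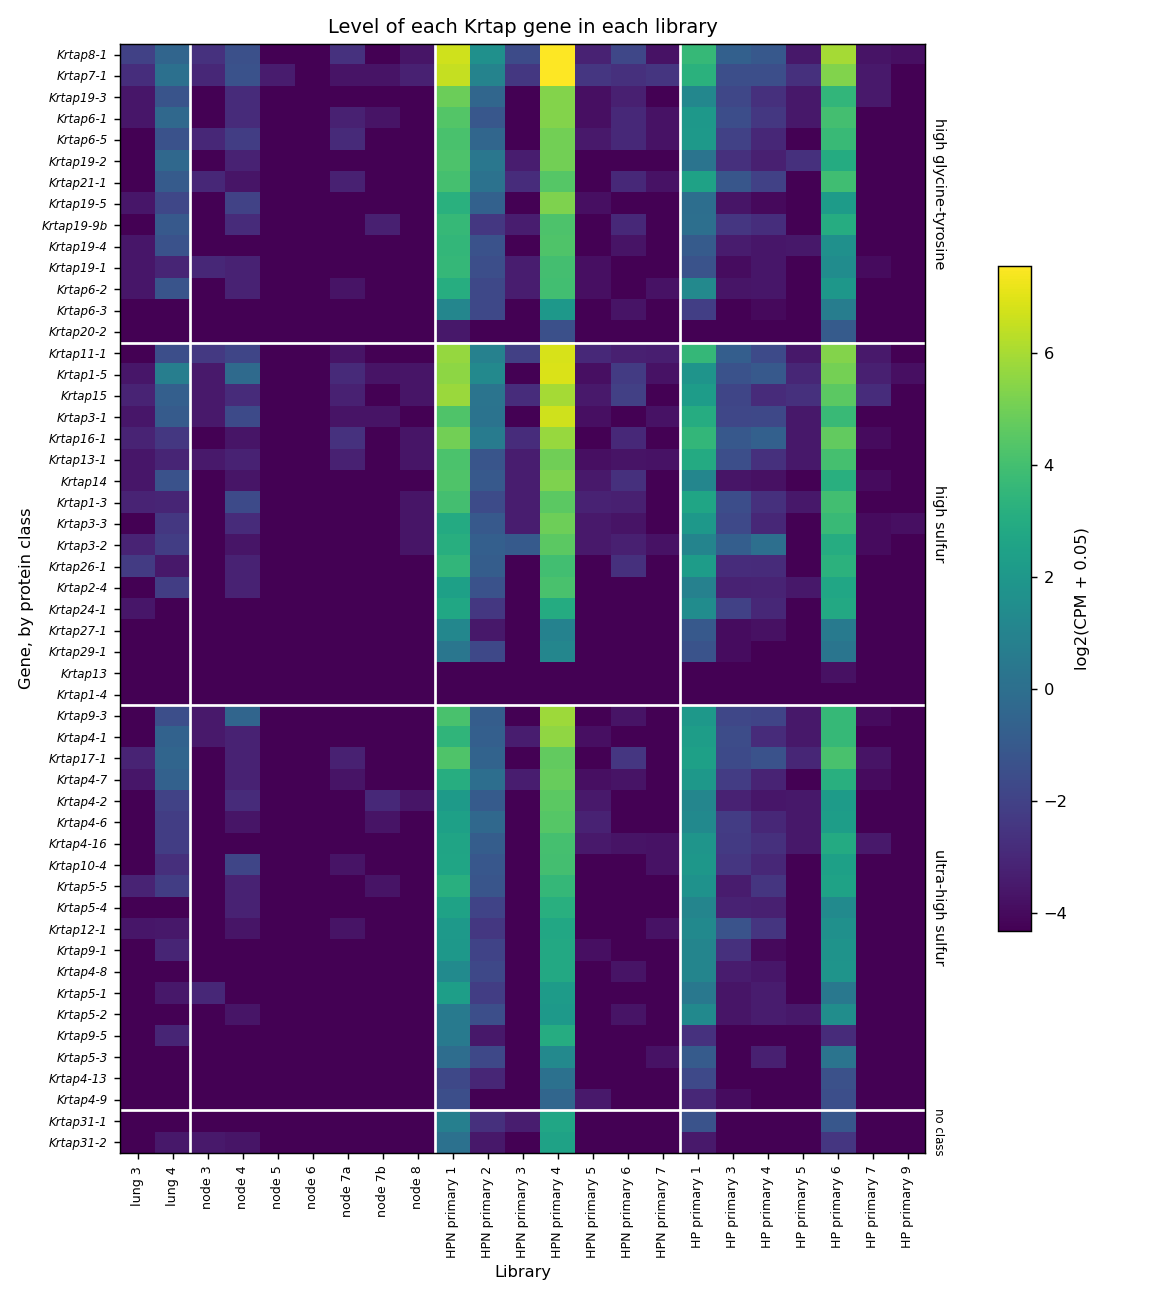
Each of the 52 Krtap genes (rows, by protein class and falling mean CPM in primaries) in each of the 23 libraries (columns, white lines between groups), with colour giving log2(CPM + 0.05). HPN primaries 1 and 4 and HP primaries 1 and 6 form bright columns through all classes, HPN primary 2, HP primaries 3 and 4 and lung 4 fainter ones, and Krtap1-4 and Krtap13 are dark or nearly so throughout.

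Krtap8-1 and Krtap7-1, high glycine-tyrosine proteins of the hair cortex, were the strongest members. Krtap8-1 was at 0.193 CPM (lung 3) and 0.690 CPM (lung 4). In node libraries its lowest, median and highest values were 0, 0.0289 and 0.321 CPM. In HPN primaries they were 0.0253, 0.277 and 187 CPM, and in HP primaries 0.0195, 0.432 and 61.2 CPM. Both lungs and the highest nodes thus lay inside the range of the primaries, above the lowest of them. Krtap7-1 was at 0.0965 CPM (lung 3) and 1.0 CPM (lung 4), at 0, 0.0440 and 0.350 CPM in nodes, at 0.105, 0.138 and 187 CPM in HPN primaries, and at 0, 0.313 and 38.9 CPM in HP primaries (lowest, median and highest). Krtap19-3 and Krtap6-1, of larger glycine-tyrosine families, peaked at 40.3 and 40.7 CPM in HPN primary 4 and at 11.2 and 16.2 CPM in HP primary 6.

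Among high sulfur genes, Krtap11-1 encodes a protein seen early in the hardening cortex and cuticle of human hair. It was at 0 (lung 3) and 0.311 CPM (lung 4), at 0, 0 and 0.233 CPM in nodes, at 0.0506, 0.185 and 113 CPM in HPN primaries, and at 0, 0.270 and 41.2 CPM in HP primaries (lowest, median and highest). Krtap1-5, of the KAP1 family of the cortex, took the most counts of any member in both metastases numbered 4, at 1.62 CPM in lung 4 and 0.817 CPM in node 4, against 119 CPM in HPN primary 4. Krtap15 and Krtap14 lie on opposite strands at 1 place and overlap, and the strand setting of the counting is not given, so reads from the overlap cannot be told apart. Krtap15 peaked at 62.3 CPM and Krtap14 at 38.6 CPM in HPN primary 4. Krtap3-1 was at 104 CPM there and 19.6 CPM in HPN primary 1, a wider gap between these libraries than for Krtap8-1 with 187 and 103 CPM.

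No ultra-high sulfur gene had a mean above 8.55 CPM per kb over the 14 primaries, the level of Krtap9-3. Krtap9-3 and Krtap4-1, of families made in the cortex of human hair, reached 56.2 and 48.0 CPM in HPN primary 4 and 12.2 and 12.4 CPM in HP primary 6. Krtap17-1, a cuticle gene in human hair, reached 26.1 CPM in HPN primary 4, 19.4 CPM in HPN primary 1 and 17.7 CPM in HP primary 6, and Krtap4-7 reached 28.0, 8.34 and 8.83 CPM in the same libraries. Krtap17-1 thus differed less between these libraries than Krtap9-3 did. Of the 52 members, 2 share over 50% of their 50-base stretches with other genes, Krtap4-13 (81.3%) and Krtap5-1 (54.3%), so their reads may be split or lost. Another 35 members share a smaller part, among them Krtap3-2 (28.9%) and Krtap6-1 (28.3%), so their levels may be affected too. The other 15 members share none. Krtap10-4 and Krtap12-1 lie within or across Tspear, and Krtap24-1 overlaps a gene on the other strand, so their counts are uncertain too.

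The make-up of the family differed between primaries beyond counting error. High glycine-tyrosine genes made up 44.4% of family counts in lung 4 (95% Wilson interval 39.5 to 49.4%). They made up 46.0% (45.3 to 46.6%), 37.6% (34.4 to 40.9%) and 40.7% (40.3 to 41.1%) in HPN primaries 1, 2 and 4. In HP primaries 1, 3, 4 and 6 the share was 27.2% (25.9 to 28.5%), 29.3% (25.7 to 33.3%), 24.8% (21.4 to 28.5%) and 36.8% (36.1 to 37.4%). These are the 8 libraries with at least 300 family counts, intervals cover counting error only, and a difference between genotypes was not tested. The ultra-high sulfur share ran from 14.6% in HPN primary 1 to 28.7% in HP primary 1.

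**Figure D3:**
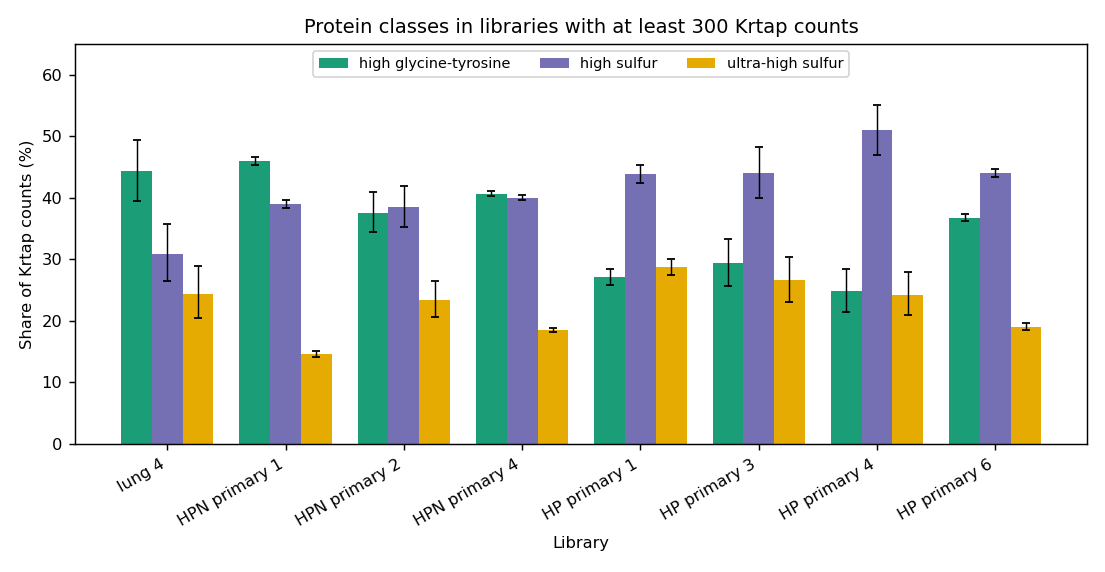
Share of Krtap counts (vertical axis, percent, from 0) held by the high glycine-tyrosine, high sulfur and ultra-high sulfur classes in the 8 libraries with at least 300 Krtap counts, with 95% Wilson intervals as bars. The high glycine-tyrosine share is 37.6 to 46.0% in the 3 HPN primaries and 24.8 to 36.8% in the 4 HP primaries.

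Single members varied more. Over HPN primaries 1 and 4 and HP primaries 1 and 6, Krtap9-5 took 0.510% of family counts in HPN primary 4 and 0.0173% in HP primary 6, a 29.5-fold range, and Krtap5-2 took 0.181% in HPN primary 1 and 1.51% in HP primary 1, an 8.31-fold range. Krtap9-5 had 283 counts in HPN primary 4 and 41 in HPN primary 1, but 4 and 3 in HP primaries 6 and 1. Krtap19-1 ranged 6.92-fold. Krtap11-1, Krtap6-5 and Krtap6-1 kept the most even shares, within 1.20-, 1.27- and 1.31-fold. Krtap3-2, a high sulfur gene of the cortex family KAP3, took 1.11 to 1.58% in those 4 libraries, but 15.4% (12.6 to 18.5%) in HP primary 4 with 88 of 573 counts and 6.46% (4.68 to 8.85%) in HP primary 3. In lung 4, Krtap1-5 took 12.2% (9.31 to 15.9%) and Krtap11-1 2.34% (1.23 to 4.38%), against 7.38% (7.17 to 7.60%) and 7.05% (6.84 to 7.26%) in HPN primary 4.

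In the libraries with the most family RNA, the keratins of the hair shaft summed to a level near that of the family. The 14 hair shaft keratins found in the files, which form the filaments that the family binds, summed to 9.21 CPM in lung 4, 4.14 CPM in node 4, 1479, 995 and 28.4 CPM in HPN primaries 4, 1 and 2, and 613, 171, 8.89 and 6.86 CPM in HP primaries 6, 1, 3 and 4. The family's level divided by theirs was 1.44 in lung 4 and 1.19 in node 4. It was 1.09, 0.774 and 1.03 in HPN primaries 4, 1 and 2, and 0.832, 0.956, 0.916 and 0.902 in HP primaries 6, 1, 3 and 4. Over the other libraries with a count of either, the ratio lay between 0.25 (node 5) and 1.14 (node 3), and node 6 had all 14 keratins at 0 as it had the family. Hoxc13, a homeobox regulator of hair keratin genes, was at 24.1, 22.7 and 0.313 CPM in HPN primaries 4, 1 and 2, and at 27.3, 9.61, 1.07 and 2.59 CPM in HP primaries 6, 1, 3 and 4. Foxn1, a forkhead factor needed for hair formation in the mouse, was at 22.8, 18.5 and 0.209 CPM in these HPN primaries and at 19.2, 7.85, 4.24 and 3.18 CPM in these HP primaries. Hoxc13 did not keep the family's order, at 0.313 CPM in HPN primary 2 and 2.59 CPM in HP primary 4, where the family had 29.2 and 6.19 CPM. Both regulators come from a list of 14 follicle regulators, and their values in the other libraries are not given here. That list as a whole summed to 38.1 to 96.8 CPM in node libraries and 17.7 to 775 CPM in HPN primaries, so it was not near 0 where the family was.

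The family did not track epidermis in the same way. The 15 interfollicular epidermis genes found, such as Krt14 of the basal layer, summed to 2915 CPM in HPN primary 3, 1113 CPM in HPN primary 6, 7488 CPM in HP primary 3 and 5530 CPM in HP primary 4, where the family stood at 1.85, 1.87, 8.14 and 6.19 CPM. HPN primary 2 had only 74.4 CPM of epidermis genes with 29.2 CPM of the family. The primaries with the most family RNA were also rich in epidermis RNA. Their epidermis sums were 3263 and 8551 CPM in HPN primaries 4 and 1 and 18355 and 11858 CPM in HP primaries 6 and 1. Family CPM per 1000 epidermis CPM came to 492.7, 393 and 89.99 in HPN primaries 4, 2 and 1, to 27.8, 13.8, 1.12 and 1.09 in HP primaries 6, 1, 4 and 3, and to 1.68 and 0.633 in HPN primaries 6 and 3.

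**Figure D4:**
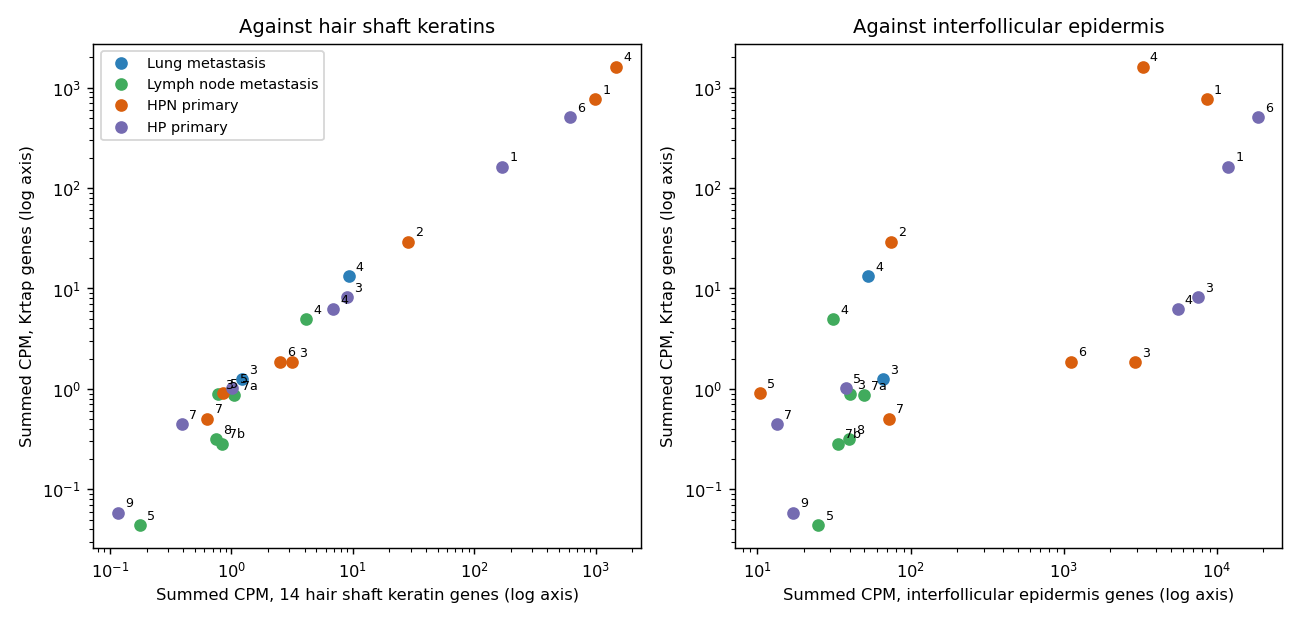
Summed Krtap CPM (vertical, log axis) against the summed CPM of 14 hair shaft keratins (left, log axis) and of interfollicular epidermis genes (right, log axis), with 1 point per library coloured by group and numbered by title. Libraries lie along a diagonal on the left, while on the right HPN primaries 3 and 6 and HP primaries 3 and 4 combine over 1000 CPM of epidermis genes with less than 10 CPM of the family. Node 6, with no Krtap count, cannot be drawn on these axes.

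Node metastases were compared with HPN primaries, as the study set metastases beside primaries of the same genotype. Family genes were lower in node samples on average. After the filter on low counts 48 of 52 members were tested, and 39 fell at an adjusted p under 0.05 and none rose (edgeR quasi-likelihood test, Benjamini-Hochberg over 19152 genes). Of all genes tested 9.81% were called lower and 12.7% higher. All 48 passed the filter on their counts in HPN primaries 1 and 4 alone, so members entered the test through the group in which they were high, and their count is a description. The median log2 difference of the tested members was -8.08, or -7.60 with the 12 members without a node count set at their bound, against -0.08 over all genes. The median of the tested members was -9.02 without node 4 and -6.80 without HPN primary 4. No bound was set in these fits. Node 4 held 169 family counts and the next node library 31, so the size of the difference without node 4 is uncertain. In bulk samples, fewer cells of a type and less RNA per cell cannot be told apart.

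The calls rested on group averages. The family averaged 1.05 ± 1.75 CPM in node libraries (SD, n = 7) and 344 ± 625 CPM in HPN primaries (SD, n = 7), while the medians were 0.318 and 1.87 CPM. In no member did every node lie below every HPN primary, as it did in 0.506% of all genes with a count: for 33 members 3 HPN primaries lay above the highest node library, for 9 it was 4, and for none all 7. By class, 12 of 13 tested high glycine-tyrosine genes, 13 of 15 high sulfur genes, 13 of 18 ultra-high sulfur genes and Krtap31-2 were called.

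Krtap3-2 had the smallest p. It was at 0.0292 CPM in node 4 and 0.0289 CPM in node 8, a count in each, and at 0 in the other 5 node libraries, while HPN primaries ran from 0.0253 through a median of 0.462 to 23.2 CPM. The lowest primary overlapped the nodes, and 6 of 7 primaries lay above the highest node. Its pooled level over the node libraries was 532-fold below the mean of HPN primaries, with a counting interval of 147 to 4396, and it fell at an adjusted p of 0.00751 (edgeR). Krtap14, next in order, had a single node count and fell at an adjusted p of 0.00971 (edgeR). Its HPN primaries ran from 0 through 0.105 to 38.6 CPM, so a primary without it overlapped the nodes.

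Krtap15 was at 0, 0.0289 and 0.0875 CPM in nodes and at 0, 0.184 and 62.3 CPM in HPN primaries (lowest, median and highest), and fell by 9.0 ± 2.25 on the log2 scale (SE, edgeR adjusted p = 0.0119). Krtap16-1 was at 0, 0 and 0.111 CPM in nodes and at 0, 0.0923 and 52.9 CPM in HPN primaries, and fell by 8.92 ± 2.26 (SE, edgeR adjusted p = 0.0126). For Krtap8-1, with the node and primary values given above, the difference was -8.94 ± 2.27 (SE, edgeR adjusted p = 0.0128). In each of these genes the lowest primaries overlapped the nodes and HPN primaries 1 and 4 stood far above them. Of the other named members, Krtap7-1 (-8.82), Krtap11-1 (-8.57), Krtap17-1 (-8.43), Krtap6-1 (-8.37), Krtap3-1 (-8.33), Krtap13-1 (-7.99) and Krtap1-5 (-7.29) fell at adjusted p-values between 0.0137 and 0.0337 (edgeR log2 differences). Krtap9-3, at 0.671 CPM in node 4, was at -6.53 ± 2.35 and did not pass (SE, edgeR adjusted p = 0.0588). Members with 1 to 3 node counts in all that passed the test included Krtap19-3, Krtap4-1 and Krtap4-7, whose pooled node level was 765-fold (counting interval 262 to 3709), 643-fold (220 to 3116) and 404-fold (138 to 1958) below the mean of HPN primaries. Members with no node count were at least 338-fold (Krtap19-4), 248-fold (Krtap4-16) and 158-fold (Krtap24-1) below the mean of HPN primaries, counted against 3 counts over the group. Their medians in HPN primaries were only 0.0263, 0.0388 and 0 CPM, and these bounds do not cover the spread of the primaries.

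Neighbouring lists moved with the family in the main fit. All 14 hair shaft keratins tested fell, among them Krt32 of the cuticle (0.00941 ± 0.0162 CPM in nodes and 7.49 ± 12.3 CPM in HPN primaries, SD, n = 7 each). So did 10 of 10 inner root sheath and companion layer genes, 7 of 7 hair shaft differentiation genes, 15 of 15 epidermis genes, 10 of 10 skeletal muscle genes and 3 of 5 sebaceous genes (edgeR). Of 14 follicle regulators 7 fell and none rose, and of 7 follicle stem cell genes 3 fell and Nfatc1 rose. None of 9 melanocyte genes was called in this comparison by edgeR, and 8 of 8 lymphocyte genes rose. Of all genes tested in that fit, 9.81% were called lower and 12.7% higher. The lists were not counted with the low-quality batch as a term or without its libraries. The skeletal muscle list summed to 3.84 to 12.5 CPM in node libraries and 2.94 to 4881 CPM in HPN primaries, and the epidermis list to 19.6 to 49.6 CPM in node libraries and 10.3 to 8551 CPM in HPN primaries. The part of admixed tissue in the family's difference was not tested. With the low-quality batch as a term 3 of 48 members were called (Krtap3-2, Krtap14 and Krtap11-1), where 5.87% of all genes were called lower. Without its libraries 1 of 48 was (Krtap3-2, adjusted p = 0.0434 by edgeR), where 2.07% of all genes were called lower, and the batch itself holds only 1 HPN primary. Leaving out single samples gave 20 to 40 calls. There were 20 of 48 without node 5, node 7 or node 8 and 22 of 48 without node 6, with 5.0 to 6.04% of all genes called lower in these 4 fits. Without HPN primary 4 only 31 members passed the filter and 22 were called (7.33% of all genes lower), and without HPN primary 1 it was 30 of 31 (14.1% of all genes lower).

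Lung metastases were compared with HPN primaries in the same fit. None of the 48 members tested was called by edgeR, where 0.0157% of all genes were called lower and 0.251% higher. At an unadjusted p under 0.05 there were 2 of 48, against 3.32% of all genes in that direction. DESeq2 gave an adjusted p for 45 members and called 2 lower, Krtap5-4 and Krtap13-1, against 1.08% of all genes. All 48 had negative differences, with a median log2 difference of -5.63 (-5.31 with the 9 members without a lung count at their bound), against -0.06 over all genes, and adjusted p-values ran from 0.684 to 0.875 (edgeR). The median rested on single libraries, at -8.03 without lung 4, -4.95 without lung 3 and -3.74 without HPN primary 4. Members without a lung count were not set at a bound in these fits. Without lung 4, 49 members were tested but only 22 had a count in lung 3, so -8.03 is no measured difference. The family averaged 7.27 ± 8.51 CPM in lungs (SD, n = 2) and 344 ± 625 CPM in HPN primaries (SD, n = 7), but the lung median of 7.27 CPM exceeded the primary median of 1.87 CPM. In no member did both lungs lie below every HPN primary, as in 1.21% of all genes with a count.

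The members with the smallest p show the size of these differences. Krtap5-2, of a family made in the cuticle of human hair, and Krtap5-4 had no lung count. Counted against 3 counts over both lungs, they were at least 17.1-fold and 43.0-fold below the mean of HPN primaries. That bound covers the lung counts and not the spread of the primaries. Krtap5-2 had a median of 0.0263 CPM in HPN primaries with 3 of 7 at 0, and Krtap5-4 a median of 0 with 4 of 7 at 0. Krtap13-1 was at 0.0322 and 0.0690 CPM in lungs 3 and 4, a total of 3 counts, and at 0.0194, 0.0462 and 31.7 CPM in HPN primaries (lowest, median and highest), and its pooled lung level was 144-fold below the mean of HPN primaries, with a counting interval of 49.2 to 697. Krtap16-1 was at 0.0643 and 0.138 CPM in lungs 3 and 4, within the range of 0 to 52.9 CPM in HPN primaries, and its log2 difference was -6.95 ± 3.39 (SE, edgeR adjusted p = 0.702). Krtap11-1 differed by -7.29 ± 3.56 (SE, edgeR adjusted p = 0.702). There were only 2 lungs, and their family levels differed 10.6-fold. The low-quality batch holds no lung, and without its libraries the median log2 difference of the members was -5.84.

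Lungs and nodes were set against each other with the same fit. None of the 48 tested members was called by edgeR, against 3.09% of all genes lower and 1.96% higher in lungs, and none passed at an unadjusted p under 0.05, where 22.9% of all genes did. DESeq2 called 3 of 48 members higher in lungs, Krtap19-4, Krtap24-1 and Krtap9-5, each without a count in any node library, against 4.02% of all genes. Over both lungs Krtap19-4 had 11 counts. Krtap9-5 had 2 counts and Krtap24-1 had 1, in each case with 1 lung at 0, so these calls rest on very few reads. Differences were positive in 39 members and negative in 2, with 7 at 0 counts in both groups, and the median log2 difference was 2.26, against 0.01 over all genes. Without lung 4 that median was 0, which reflects members with no count in either group and not equal levels. Without node 4 it was 3.40. Members without a count in 1 of the groups enter these medians with no bound set, so their size is uncertain. The median was 2.98 without HPN primary 1 and 2.92 without HPN primary 4, over 31 members each. Both lungs exceeded every node library in 6 of 51 members with a count, against 6.87% of all genes with a count: Krtap3-2, Krtap5-5, Krtap12-1, Krtap14, Krtap17-1 and Krtap19-4. Krtap17-1 was at 0.0643 and 0.690 CPM in lungs 3 and 4 and at 0, 0 and 0.0584 CPM in nodes (lowest, median and highest), with a log2 difference of 4.28 ± 2.43 (SE, edgeR adjusted p = 0.313). For Krtap3-2 the lungs were at 0.0643 and 0.173 CPM and the highest node at 0.0292 CPM. In lung 3, Krtap3-2, Krtap5-5 and Krtap17-1 had 2 counts and the other 3 of these members had 1.

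HPN primaries were compared with HP primaries to ask whether the loss of a copy of Nme1 and Nme2 goes with a change in the tumours. No member was called by edgeR, as no gene was (0% lower and 0% higher of 16578), and 477 genes (2.88%) but no member passed at an unadjusted p under 0.05; DESeq2 called none. Only 5 members passed the filter in this fit, which needs 7 samples: Krtap1-5, Krtap8-1, Krtap11-1, Krtap3-2 and Krtap16-1. Without the filter 51 were tested, none was called and 2 had an unadjusted p under 0.05, as had 3.56% of all genes. Without the libraries of the low-quality batch 44 members were tested and edgeR called none, and the batch holds too few HPN primaries for a comparison of its own. The family averaged 344 ± 625 CPM in HPN primaries and 98.5 ± 191 CPM in HP primaries (SD, n = 7 each), while the medians ran the other way, at 1.87 CPM in HPN primaries and 6.19 CPM in HP primaries.

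Of the 5, Krtap1-5 had the largest difference, at 2.14 ± 1.96 on the log2 scale (SE, edgeR adjusted p = 0.951). It was at 0, 0.158 and 119 CPM in HPN primaries and at 0.0195, 0.345 and 33.0 CPM in HP primaries (lowest, median and highest), so the ranges overlapped throughout. Krtap8-1 differed by 1.96 ± 1.99 and Krtap11-1 by 1.62 ± 1.94, and Krtap3-2 by 1.48 ± 1.66, each with an SE larger than the difference (edgeR adjusted p = 0.951). Without HPN primary 4 the difference of Krtap3-2 was -0.035. The difference of Krtap16-1 was 1.17, and -0.32 with the title number as a block. These values do not show that the genotypes are alike.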

How the data were processed

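Total RNA of 23 mouse melanoma samples was extracted with a column kit and made into directional libraries, per the labels' protocols. The submitters' processing notes name bcl2fastq 1.8.4, STAR 2.5.3a and the build mm9. The authors deposited raw read counts for Ensembl genes, as whole numbers and in a file for each library. The counter's strand mode, version and gene models were not given in the sources used here. Summary entries that name no gene, 49.2 to 75.0% of all entries, entered neither library sizes nor tests. Symbols, gene types, lengths and overlaps were looked up in GENCODE vM21 (GRCm38), where 87.4% of identifiers were found. Because that build differs from mm9, the only coordinates given are those of RefSeq's promoter table.

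The members and the gene lists were chosen with earlier results of these data known. Classes follow the family number, a textbook grouping. CPM used TMM factors over all 23 libraries. Comparisons were run in R 4.3.3 with edgeR 4.0.16 (TMM after filterByExpr, robust glmQLFit, glmQLFTest, Benjamini-Hochberg over all genes tested, threshold 0.05, two-sided), with the 14 primaries in 1 fit and the HPN groups in another. Node libraries 7a and 7b, which share a title number, were summed for fits. The edgeR test gives no SE. The SE printed with an edgeR log2 difference is the size of that difference divided by the square root of its F statistic. Named with values are the 4 members of each class with the highest mean CPM in primaries, the 5 with the smallest p in each comparison, and, of other lists, genes among the 4 with the smallest p in nodes; Hoxc13, Krt14 and members singled out for their make-up or levels were named after their values were seen. Title numbers are shared by HP and HPN primaries, and the deviations of all 6 same-numbered pairs correlated at 0.104 to 0.661, although 0 of 6 correlated best with their own number; the blocked fit called no member. Alternatives were DESeq2 1.42.0, its size factors, other filters, all groups in 1 fit, the title number as a block, the low-quality batch as a term or left out, node libraries 7a and 7b apart, and each sample left out. Intervals and floors cover counting error only, since reads carry no molecular identifiers. The scripts were tested on simulated data.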

Additional observations from a re-analysis of the deposited data

Results flagged for a closer look

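In 33 of the 60 sets of 7 values checked (the family sum and each of 19 named members in nodes, HPN primaries and HP primaries), the highest library stood apart from the rest, with a gap to its nearest neighbour above Dixon's 95% critical value for 7 samples. Chance puts about 1 in 20 sets of normally distributed values past that limit, but these are CPM values with many zeros, the members were chosen by level or p and they share libraries, so 33 of 60 cannot be read against that rate. A single count beside 6 libraries at 0 passes by construction. HP primary 6 was the library that stood apart in 14 sets, node 4 in 11, HPN primary 4 in 7 and node 7a in 1.

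Node 4 stood apart for the family sum at 4.93 CPM. Its members that stood apart, with their CPM, were Krtap8-1 (0.321), Krtap7-1 (0.350), Krtap19-3 (0.0875), Krtap1-5 (0.817), Krtap3-1 (0.263), Krtap9-3 (0.671), Krtap14 (0.0292), Krtap5-2 (0.0292), Krtap5-4 (0.0584) and Krtap19-2 (0.0584). For Krtap14 and Krtap5-2 that level is a single count and for Krtap5-4 and Krtap19-2 it is 2 counts. Krtap16-1 stood apart in node 7a at 0.111 CPM, which is 4 counts.

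In HPN primary 4 the members that stood apart, with their CPM, were Krtap1-5 (119), Krtap3-1 (104), Krtap9-3 (56.2), Krtap4-1 (48.0), Krtap4-7 (28.0), Krtap3-2 (23.2) and Krtap5-2 (4.25). In HP primary 6 the family sum stood apart at 510.6 CPM. Its members that stood apart, with their CPM, were Krtap8-1 (61.2), Krtap7-1 (38.9), Krtap19-3 (11.2), Krtap6-1 (16.2), Krtap11-1 (41.2), Krtap1-5 (33.0), Krtap15 (23.3), Krtap9-3 (12.2), Krtap4-1 (12.4), Krtap17-1 (17.7), Krtap3-2 (8.06), Krtap14 (8.83) and Krtap19-2 (7.78). HP primary 6 also had the highest epidermis sum of all libraries, at 18355 CPM, and the part of that tissue in these values was not tested.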

How the results depend on the processing

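The number of members called lower in nodes against HPN primaries was 39 of 48, where 9.81% of all genes were called lower. It kept within 1.5 times in several fits, given here with that share of all genes. DESeq2 gave 44 of 48 (14.2%), DESeq2 size factors 39 of 48 (9.53%) and no filter 35 of 50 (4.95%). With 1 fit of all 4 groups it was 40 of 49 (8.31%), and with a minimum of 1 CPM 39 of 47 (11.02%). Keeping node libraries 7a and 7b apart gave 46 of 48 (13.2%). The counts of 44 and 46 thus came with the highest shares among these fits. The number was 3 of 48 with the low-quality batch as a term (5.87%) and 1 of 48 without the libraries of that batch (2.07%). With the title number as a replicate block it was 3 of 20 members tested (1.93%), against 5 of 20 (5.26%) without the block over the same samples. The fit without the block was chosen after seeing the data, and fewer samples and members enter both fits. The check used cannot say whether the numbers pair these samples. Deviations of same-numbered HPN samples correlated at -0.24 to 0.43, and 1 of 5 nodes correlated best with its own primary. Same-numbered primaries of different genotypes, which are not from 1 mouse, correlated at 0.104 to 0.661, so such values do not separate paired from unpaired samples. Leaving out 1 sample gave 20 to 40 calls in nodes and 0 in the other comparisons, where a lone lung was assumed to vary like the other groups and 0 calls say nothing about stability. Krtap3-2 stayed called in nodes in 25 of 25 alternatives. That member was picked for the smallest p in this comparison and the alternatives reuse the same samples, so this is not independent support. DESeq2 called 2 members lower in lungs against HPN primaries (1.08% of all genes) and 3 higher in lungs against nodes (4.02% of all genes), where edgeR called 0. Reversed signs occurred for Krtap3-2 between genotypes without HPN primary 4 (-0.035, in a leave-one-out range of -0.035 to 2.99) and for Krtap16-1 between genotypes with the replicate block (-0.32), neither called. The block changed no call between genotypes. The minimum of 1 CPM left no member to test between genotypes. The causes of these shifts were not tested. At these depths a level under about 0.1 CPM is a handful of counts, so most node and several primary values are near the limit of detection.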
